A study of Mus musculus with 108 samples.

Results

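The loci of 5 myeloid genes, Cebpa, Cebpb, Cebpe, Irf8 and Csf1r, were examined in a reporter screen for enhancer activity during the differentiation of mouse embryonic stem cells to blood. A locus was the gene body with 100 kb on each side in mm10, and every sorted fragment that overlapped it was taken, together with the plasmid fragments at the same places. The 5 loci held 2801 of the 2287772 listed fragments, or 1482 of 1176712 distinct fragments, and 116 of the 76144 sites obtained by merging overlapping fragments. In the screen, open chromatin fragments cut out with the transposase Tn5 were cloned into an entry plasmid (pDONR) and moved into a reporter plasmid (pSKB) with a minimal HSP68 promoter and Venus-YFP, a fluorescent protein. Cells of a single mouse ES line, HM-1, carried the reporter inserted at Hprt, so every fragment was read away from its own chromosomal place and as a pool of cells. The groups were 5 stages, each with 5 replicates: undifferentiated ES cells, FLK1+ hemangioblast (HB), KIT+ TIE2+ CD41- first hemogenic endothelium (HE1), KIT+ TIE2+ CD41+ second hemogenic endothelium (HE2) and KIT+ TIE2- CD41+ hematopoietic progenitors (HP). No treatment or gene deletion was compared. The samples analysed here hold DNA fragments and no RNA, so the stages were not checked against marker genes. In replicates 1 to 4 the cells were sorted by YFP into 4 gates, Negative, Low, Medium and High, and in replicate 5 into 3 gates, with Medium and High taken as one. Below, the positive set of a replicate is the union of the fragments in its YFP+ gates.

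C/EBP proteins are basic leucine zipper transcription factors that drive myeloid differentiation. C/EBPα, the product of Cebpa, is needed for granulocyte-monocyte progenitors, C/EBPβ for emergency granulopoiesis and macrophage gene expression, and C/EBPε for the late steps of granulocyte maturation. IRF8, the product of Irf8, is a transcription factor that directs cells to the monocyte and dendritic cell lineages. Csf1r encodes the receptor for the macrophage growth factor CSF1 and is a classical gene for studies of chromatin priming, the opening of regulatory elements ahead of expression.

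The sequences of 7 sites that carry the account are given first, from the GRCm38.p6 reference genome. Each is the stretch of at most 200 bases of the site that was covered most deeply by distinct fragments. The start sites of Cebpa, Cebpb and Irf8 are shown because they were the sampled promoters of the member genes, Cebpb +76.5 kb, Cebpe +6.3 kb and Irf8 +83.8 kb because they were distal sites seen from HB onward and never in ES cells, and Irf8 +85.2 kb because its fragments came from a single stage. Distances run from the start of the gene in its direction of transcription. Capitals mark matches on either strand to 6 searched motifs. The C/EBP motif was searched as TTGCNNAA and the PU.1 motif as GAGGAAGT. For the RUNX family the letters TGTGGTT were used, for the AP-1 complex, which is formed by FOS and JUN proteins, TGANTCA, for the GATA family of zinc finger factors AGATAA and for the TEAD family, which acts with YAP, GGAATG.
Cebpa start site, chr7:35119023-35119222, plus strand: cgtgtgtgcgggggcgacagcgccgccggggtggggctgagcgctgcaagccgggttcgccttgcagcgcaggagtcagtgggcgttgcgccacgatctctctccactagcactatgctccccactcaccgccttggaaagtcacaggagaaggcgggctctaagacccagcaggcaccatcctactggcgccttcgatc
Cebpb start site, chr2:167688741-167688940, plus strand: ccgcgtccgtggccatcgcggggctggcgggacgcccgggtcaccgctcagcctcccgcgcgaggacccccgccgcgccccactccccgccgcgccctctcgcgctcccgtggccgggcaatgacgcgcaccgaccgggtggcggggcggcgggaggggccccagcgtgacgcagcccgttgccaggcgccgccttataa
Cebpb +76.5 kb, chr2:167765259-167765458, plus strand: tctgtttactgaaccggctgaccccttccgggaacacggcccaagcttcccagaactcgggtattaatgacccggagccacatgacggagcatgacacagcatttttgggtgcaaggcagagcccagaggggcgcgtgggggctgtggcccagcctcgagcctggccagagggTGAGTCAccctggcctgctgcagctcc
Cebpe +6.3 kb, chr14:54705925-54706124, plus strand: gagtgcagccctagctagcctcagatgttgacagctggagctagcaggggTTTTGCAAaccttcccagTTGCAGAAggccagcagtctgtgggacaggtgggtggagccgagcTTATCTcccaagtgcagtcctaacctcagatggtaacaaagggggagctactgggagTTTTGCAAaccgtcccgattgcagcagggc
Irf8 start site, chr8:120736061-120736260, plus strand: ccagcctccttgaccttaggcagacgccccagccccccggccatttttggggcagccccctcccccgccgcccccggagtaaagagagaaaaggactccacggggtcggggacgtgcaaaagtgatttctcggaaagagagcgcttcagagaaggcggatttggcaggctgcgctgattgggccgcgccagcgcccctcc
Irf8 +83.8 kb, chr8:120819988-120820187, plus strand: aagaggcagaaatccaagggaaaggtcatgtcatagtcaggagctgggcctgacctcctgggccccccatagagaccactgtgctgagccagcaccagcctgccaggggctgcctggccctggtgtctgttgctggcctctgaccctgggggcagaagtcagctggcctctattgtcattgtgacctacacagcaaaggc
Irf8 +85.2 kb, chr8:120821525-120821685, plus strand: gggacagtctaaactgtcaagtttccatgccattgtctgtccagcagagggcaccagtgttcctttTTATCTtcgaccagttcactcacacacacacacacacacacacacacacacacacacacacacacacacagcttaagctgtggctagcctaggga

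The Cebpe +6.3 kb stretch held 3 C/EBP matches and 1 GATA match, the Cebpb +76.5 kb stretch 1 AP-1 match and the Irf8 +85.2 kb stretch 1 GATA match, whereas the other 4 stretches held none of the searched motifs. Among 59500 stretches of 200 bases from all sites of that length or more, 6.36% held a C/EBP match, 8.84% an AP-1 match and 9.85% a GATA match, and 2.78%, 4.48% and 11.6% held a PU.1, RUNX or TEAD match. Over the whole length of the sites, 15 of the 116 sites at the 5 loci (12.9%) held the C/EBP motif against 13.4% of all sites, 6.03% against 5.17% held the PU.1 motif and 6.03% against 9.19% the RUNX motif. The AP-1 motif was found in 15.5% against 15.8%, the GATA motif in 19.8% against 17.9% and the TEAD motif in 16.4% against 22.8%. A match is a description of the letters in these windows. Median site length was 346 bp at the 5 loci and 363 bp over all sites, and median GC content was 55.9% and 52.4%.

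The sorted libraries listed between 504 and 131036 distinct fragments, with a median of 7918. Replicates 1 and 2 were far deeper (median 42769.5 over 40 libraries) than replicates 3 to 5 (median 1528 over 55 libraries), and 90.8% of the listed fragments at the 5 loci came from replicates 1 and 2, against 91.6% of all fragments. At a depth of 1528 fragments, 1 fragment is worth over 6 fragments per 10000, and so the levels of the shallow replicates moved in large steps. In HE1, 2 pairs of libraries of different replicates shared most of their fragments. Negative of replicate 1 and Medium of replicate 2 had 89445 fragments in common (78.5% of the smaller), and Negative of replicate 3 and Low of replicate 4 had 5683 (83.0%), against a median of 3.26% and a highest value of 33.4% for the other HE1 pairs. At the 5 loci, 102 of 151 and 132 fragments were shared in the first pair and 15 of 15 and 27 in the second. Levels, gate values, site counts and log2 differences of HE1 are therefore given with these 4 libraries and without them, while medians over the members, counts over all sites and the plots include them.

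Levels are given as distinct fragments per 10000 fragments listed in the same set, which corrects for the number of fragments per stage. Pooled over the 5 replicates, every member locus lay above the median of all coding gene windows in the positive sets of the 5 stages (1.73 to 1.76 per 10000), with 3 exceptions, Cebpa in HE2 (1.64) and Csf1r in ES cells (1.502) and HE1 (1.63). Cebpb stood highest of the 5 in every stage but ES cells, where Cebpa did. In the positive sets, the range of the single replicates overlapped between all stages at every locus but Cebpb, as the plot of levels by replicate shows. At Cebpb, the ranges of ES cells (0 to 2.60) and HE2 (3.498 to 6.44) did not overlap. Only neighbouring stages were compared in a test, so this difference was not tested.

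**Figure D1:**
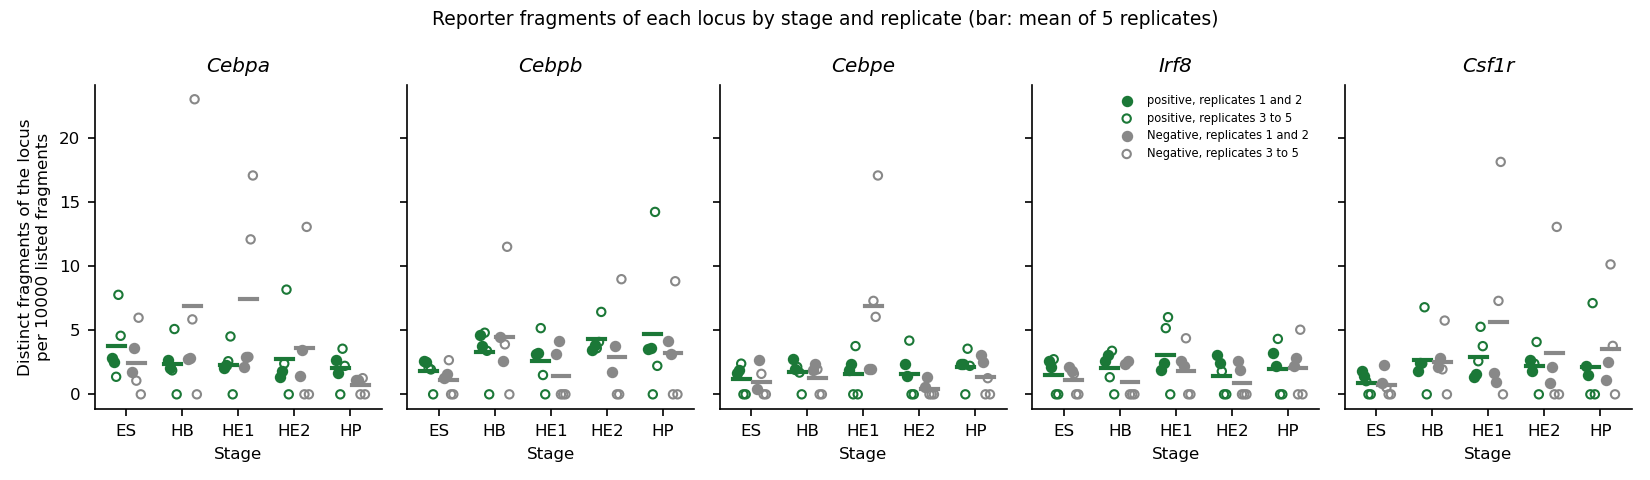
Distinct fragments per 10000 listed at each of the 5 loci (one panel a gene) in the 5 stages, for positive and Negative sets; points are replicates (filled for replicates 1 and 2) and bars mark the mean of the 5 replicates. The deep replicates 1 and 2 lie between 0.429 and 4.60 per 10000, whereas the shallow replicates 3 to 5 spread from 0 to 23.1.

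Cebpa was represented by 252 distinct fragments in 14 sites (chr7:35119293-35121928, plus strand). Its pooled positive level was 2.63 per 10000 in ES cells, 2.36 in HB, 2.24 in HE1 (2.28 without the shared libraries), 1.64 in HE2 and 2.41 in HP. Most of these fragments came from promoters: 200 of 252 were in the promoter lists, and the start site of Cebpa itself (chr7:35118918-35119665), whose core is printed above, held 68. This site had positive fragments in all stages, 20 in ES cells, 21 in HB, 29 in HE1 (22 without the shared libraries), 15 in HE2 and 16 in HP, counting a fragment once per replicate. Its Negative sets held 7, 9, 13 (5 without), 6 and 3 fragments, so it was found on both sides of the YFP gate throughout. HE1 also had the most fragments listed, and these counts are not corrected for that. The start of Cebpg, which encodes another C/EBP family protein and lies upstream within the window, gave 80 distinct fragments, and that of Lrp3 gave 44. Together, the starts of neighbouring genes made up 52.4% of the Cebpa locus.

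Distal sites at Cebpa were sparse. The site at -93.1 kb (chr7:35026036-35026385, intron of Pepd) had 7, 6, 11 (6 without the shared libraries), 3 and 1 positive fragments from ES cells to HP. The intergenic site at -38.2 kb (chr7:35080781-35081474) had none in ES cells and HB, 3 in HE1 (2 without), 5 in HE2 and 5 in HP. An enhancer 37 kb downstream of Cebpa is known from work on adult myeloid cells, and no sorted fragment lay within 2 kb of that distance, the nearest site being a single fragment at +30.8 kb.

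Cebpb (chr2:167688915-167690418, plus strand) was the most densely covered of the 5 loci, with 405 distinct fragments in 26 sites, of which 236 were distal. Per 10000, the positive sets of ES cells gave 2.60, 2.52, 2.06, 1.94 and 0 in replicates 1 to 5, and those of HB gave 4.60, 3.78, 4.82, 3.40 and 0. HB was higher in the 4 replicates with fragments, with no overlap between those values, while replicate 5 was empty at both stages. Pooled, the level was 2.46 in ES cells (59 fragments, 95% Poisson interval 1.87 to 3.17) and 4.23 in HB (122 fragments, 3.51 to 5.05). It was 3.11 in HE1 (2.95 without the shared libraries), 3.65 in HE2 and 3.598 in HP. These intervals cover counting error only and not the spread between replicates. Among all coding gene windows, 61.8% lay at or below Cebpb in ES cells and 81.0% in HB.

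The start site of Cebpb (chr2:167688297-167689326) had 44 distinct fragments. It had no positive fragment in ES cells, 14 in HB, 18 in HE1 (12 without the shared libraries), 14 in HE2 and 13 in HP. In HB these were 8 in replicate 1 and 6 in replicate 2, with none in replicates 3 to 5, and in HP as 7, 3, 0, 3 and 0. The Negative sets followed the same stages, with 0, 8, 7 (3 without), 4 and 4 fragments. The ES plasmid lists nevertheless contained this site, with 103 fragments in pDONR and 31 in pSKB. A pair of smaller sites just downstream, at +0.7 kb (chr2:167689389-167689930, over the start of Tmem189) with 7 fragments and at +1.1 kb with 2, were listed in ES cells and in no other stage. Merging fragments up to 100 bp apart would join both to the start site of Cebpb. The absence of that site in ES cells thus depends on the merging rule.

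The 4 distal Cebpb sites with the most positive fragments were alike in their absence from ES cells, while their counts from HB to HP differed. None had a fragment in ES cells in any gate. The intergenic site at +76.5 kb (chr2:167765003-167765744), with the AP-1 match, had 8 positive fragments in HB, 12 in HE1 (8 without the shared libraries), 20 in HE2 and 6 in HP. The 20 fragments in HE2 were 11 in replicate 1 and 9 in replicate 2. The site at -54.3 kb (chr2:167634440-167634861, intron of Gm20431) had 9, 15 (13 without), 15 and 10. The site at -8.7 kb (chr2:167679956-167680547, intron of Tmem189) had 12, 15 (6 without), 11 and 11, and the intergenic site at -99.7 kb (chr2:167588808-167589645) had 12, 6 (6 without), 12 and 7. Their Negative sets had 0 to 6 fragments per stage. Of the 37 distinct fragments at -8.7 kb, 7 had the same start and 9 the same end, so near copies may raise its counts. Of these 37, 19 were identical to a plasmid fragment, against 24 of 31 at +76.5 kb, 26 of 27 at -54.3 kb and 31 of 35 at -99.7 kb. Some distal Cebpb sites with fewer positive fragments were listed in ES cells. From ES cells to HP, the site at -83.5 kb had 8, 4, 8 (4 without), 4 and 3 positive fragments. The site at -3.5 kb had 7, 7, 9 (7 without), 3 and 4.

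Cebpe (chr14:54710360-54712174, minus strand) had 280 distinct fragments in 23 sites and none at its own start. Its pooled positive level was 1.84 per 10000 in ES cells, 2.32 in HB, 2.15 in HE1 (2.03 without the shared libraries), 2.09 in HE2 and 2.37 in HP. The starts of 8 neighbouring genes accounted for 58.9% of its distinct fragments, with 67 at the shared start of Cdh24 and Gm17606 and 63 at Acin1. Downstream of Cebpe, an enhancer about 6 kb from the start is known to act in granulocytes. The site at +6.3 kb (chr14:54705445-54706276, intergenic), with 3 C/EBP matches in its core, had 26 distinct fragments. It had no fragment in ES cells, 9 positive fragments in HB, 9 in HE1 (6 without), 7 in HE2 and 8 in HP, and 0, 2, 6 (1 without), 1 and 2 Negative ones. In the pDONR plasmid lists it had 7 fragments from ES cells, 104 from HB, 64 from HE1, 106 from HE2 and 166 from HP, and in the pSKB list from ES cells it had 1. Smaller sites at +5.5 and +5.0 kb had a single fragment each, both in HE2.

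In contrast, the intergenic site at +10.4 kb of Cebpe (chr14:54701437-54702051) had 7 positive fragments in ES cells, none in HB, 8 in HE1 (5 without the shared libraries), 5 in HE2 and 6 in HP. The site at -2.4 kb (chr14:54713891-54715211, intergenic), the nearest on the upstream side, was listed in all stages with 4, 4, 10 (6 without), 7 and 6 positive fragments. The locus thus contained sites with and without ES fragments within a few kb of each other.

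Irf8 (chr8:120736358-120756694, plus strand) had 312 distinct fragments in 27 sites, 219 of them distal. Its pooled positive level was 2.34 per 10000 in ES cells, 2.63 in HB, 2.28 in HE1 (2.12 without the shared libraries), 2.75 in HE2 and 2.89 in HP. The start site (chr8:120735665-120736757) had 20 distinct fragments, 6.41% of the locus, with 4, 5, 7 (5 without), 5 and 4 positive fragments from ES cells to HP. The distal site at +59.9 kb (chr8:120795870-120796733, intron of Gm20388) was listed at all stages, with 9, 13, 6 (5 without), 14 and 7 positive fragments. Elements at -50, +32, +41 and +56 kb are known for Irf8 in myeloid cells. No sorted fragment lay within 2 kb of those distances, and the nearest sites were at -52.5, +27.2 and +59.9 kb.

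The site at +83.8 kb of Irf8 (chr8:120819716-120820530, intron of Gm20388) was the largest distal site of the locus, with 53 distinct fragments. It had no fragment in ES cells, 8 positive fragments in HB, 16 in HE1 (8 without the shared libraries), 17 in HE2 and 9 in HP. In HE2, 15 of the 17 came from replicate 1 and 2 from replicate 2, so a single replicate supplied most of that value. The site was present in every pDONR list, with 11 fragments from ES cells, 47 from HB, 207 from HE1, 92 from HE2 and 49 from HP. The site at +85.2 kb (chr8:120821525-120821685) was listed in HP alone, with 25 positive and 3 Negative fragments. Of its 24 distinct fragments, 20 had one and the same start, 19 of the listed fragments were from the HP Medium library of replicate 1, and 5 were identical to a plasmid fragment. As many fragments with one start were found at 59 of the 76144 sites (0.0775%), so its number of distinct fragments is given with this limit.

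Csf1r (chr18:61100598-61132149, plus strand) had 233 distinct fragments in 26 sites and none at its annotated gene start, from which distances are given. The start of its principal transcript lies 4.97 kb downstream (chr18:61105572), and no site covered that position either. Per 10000, the positive sets of ES cells gave 1.80, 1.45, 1.03, 0 and 0 in replicates 1 to 5 and those of HB gave 1.81, 2.46, 2.41, 6.81 and 0. HB lay above ES cells in 4 replicates, by little in replicate 1, and the ranges overlapped. Pooled, the level was 1.502 in ES cells, 2.25 in HB, 1.63 in HE1 (1.51 without the shared libraries), 2.35 in HE2 and 2.04 in HP. The share of distal fragments differed more than the level, with 3 of 36 in ES cells, 22 of 65 and 18 of 73 in HB and HE1 (14 of 49 without the shared libraries), and 44 of 83 and 30 of 55 in HE2 and HP. The remainder came largely from the starts of Hmgxb3, with 78 distinct fragments, and Slc26a2, with 53. A larger distal share in HP than in ES cells was not particular to Csf1r. In ES cells and HP, distal fragments were 9 of 63 and 18 of 65 at Cebpa and 19 of 59 and 57 of 97 at Cebpb. They were 15 of 44 and 27 of 64 at Cebpe and 29 of 56 and 56 of 78 at Irf8. The distal share of all fragments per stage is not given here. The site at +27.1 kb (chr18:61127361-61128118), which overlaps a coding exon of Csf1r, had no fragment in ES cells and 14, 7 (5 without), 12 and 12 positive fragments from HB to HP. In HB these were 6 in replicate 1 and 8 in replicate 2.

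The intronic enhancer of Csf1r, known as FIRE, lies in intron 2 (chr18:61105999-61109615). The only site there, at +7.3 kb (chr18:61107532-61108186), had 8 distinct fragments. No positive fragment was listed in ES cells and HB, 1 in HE1 (0 without the shared libraries), 4 in HE2 and 2 in HP, beside 0, 0, 1 (0 without), 0 and 4 Negative ones. Its plasmid fragments in the pDONR lists numbered 5, 17, 69, 36 and 37 from ES cells to HP. The distal sites at -79.4 and -60.6 kb likewise had no positive fragment in ES cells and HB and between 1 and 5 per later stage.

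**Figure D2:**
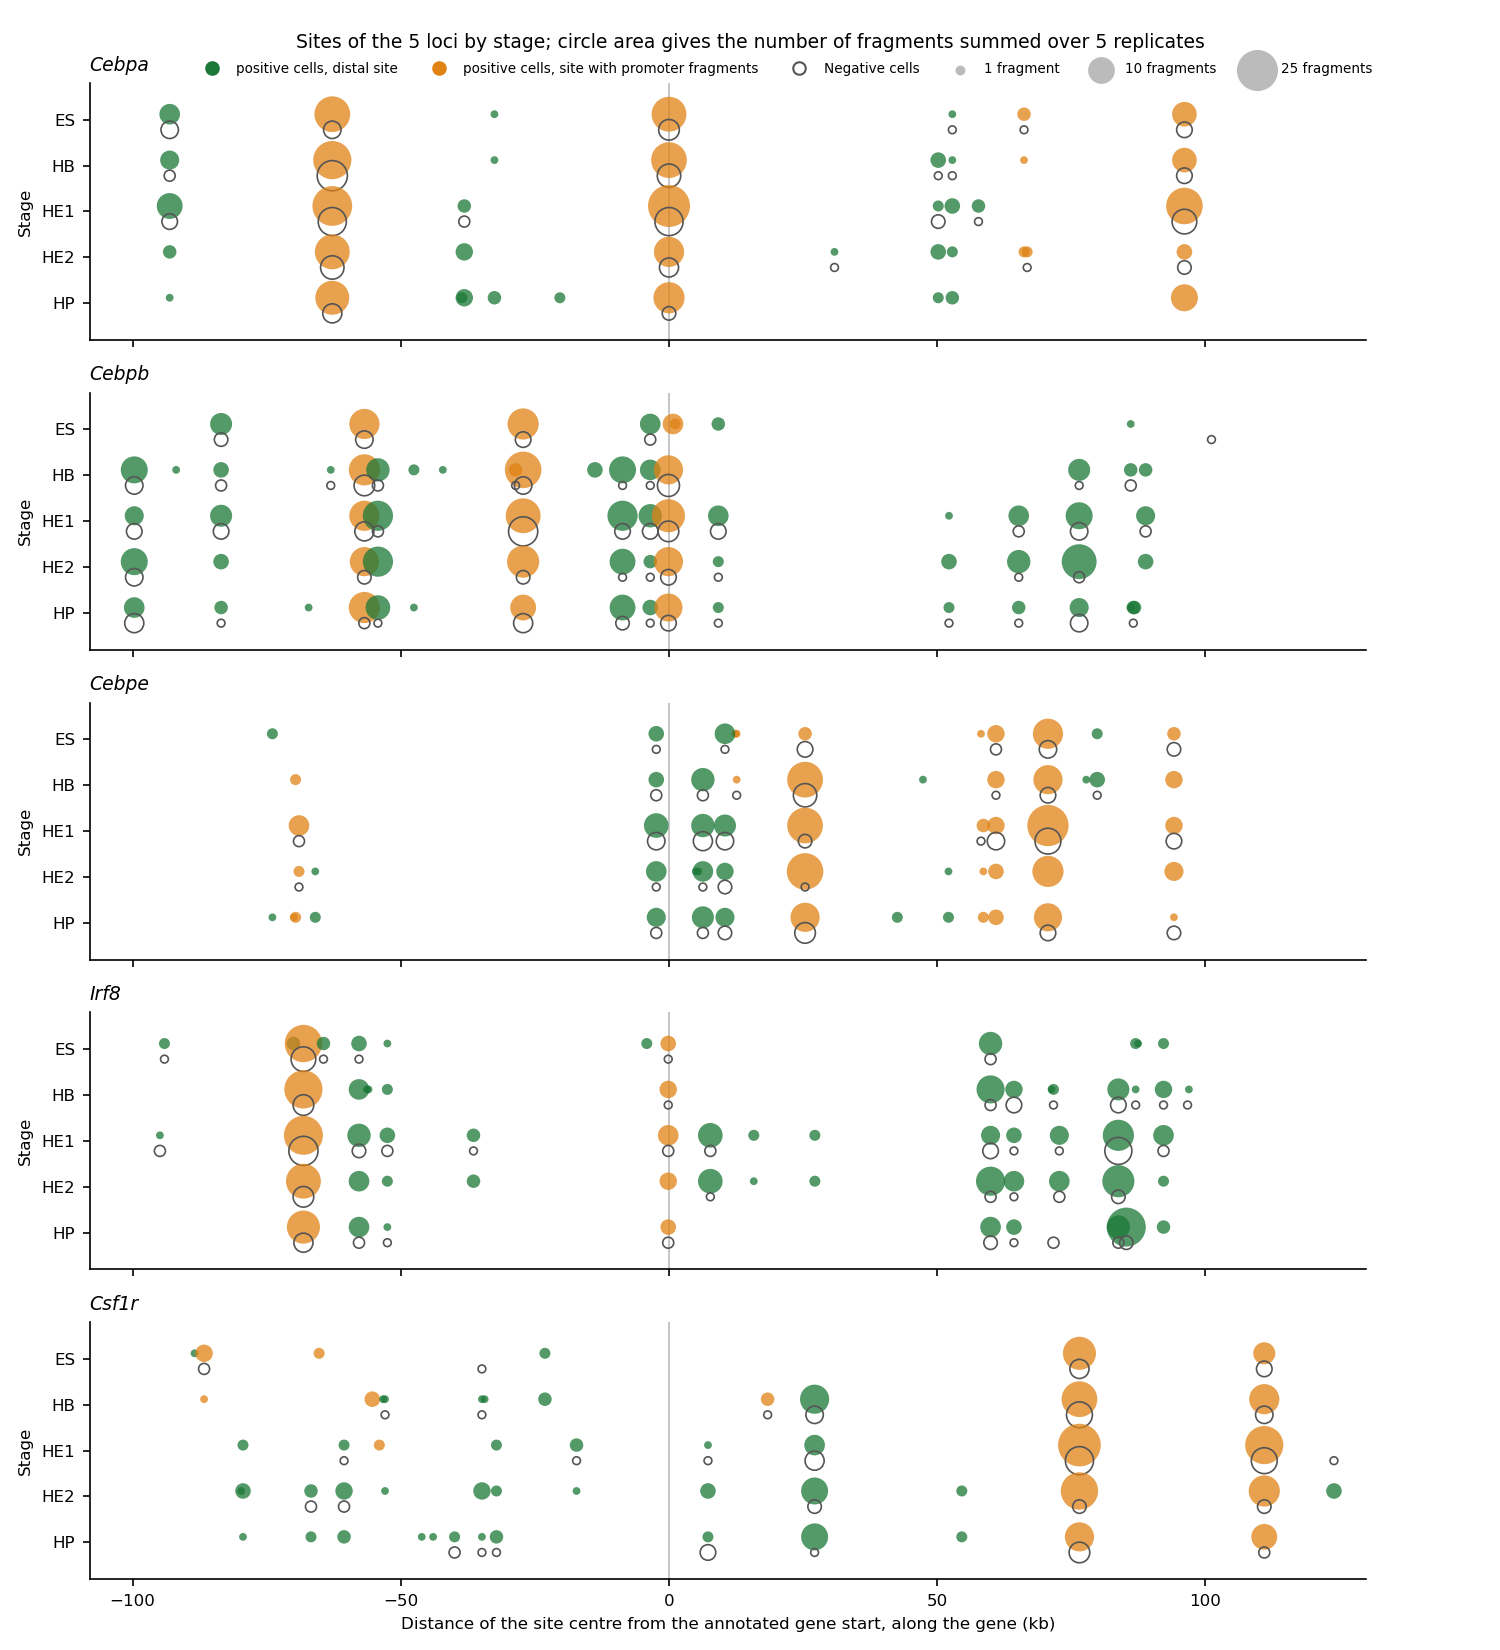
Sites of the 5 loci by distance from the gene start (horizontal axis, kb in the direction of transcription) and stage (vertical axis of each panel); the area of a circle is the number of fragments summed over the 5 replicates, filled for positive and open for Negative sets. The starts of Cebpg, Ube2v1, Cdh24, Cox4i1 and Hmgxb3 have circles in all 5 stages, whereas several distal sites at Cebpb and Irf8 have points from HB to HP and none in ES cells.

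**Figure D3:**
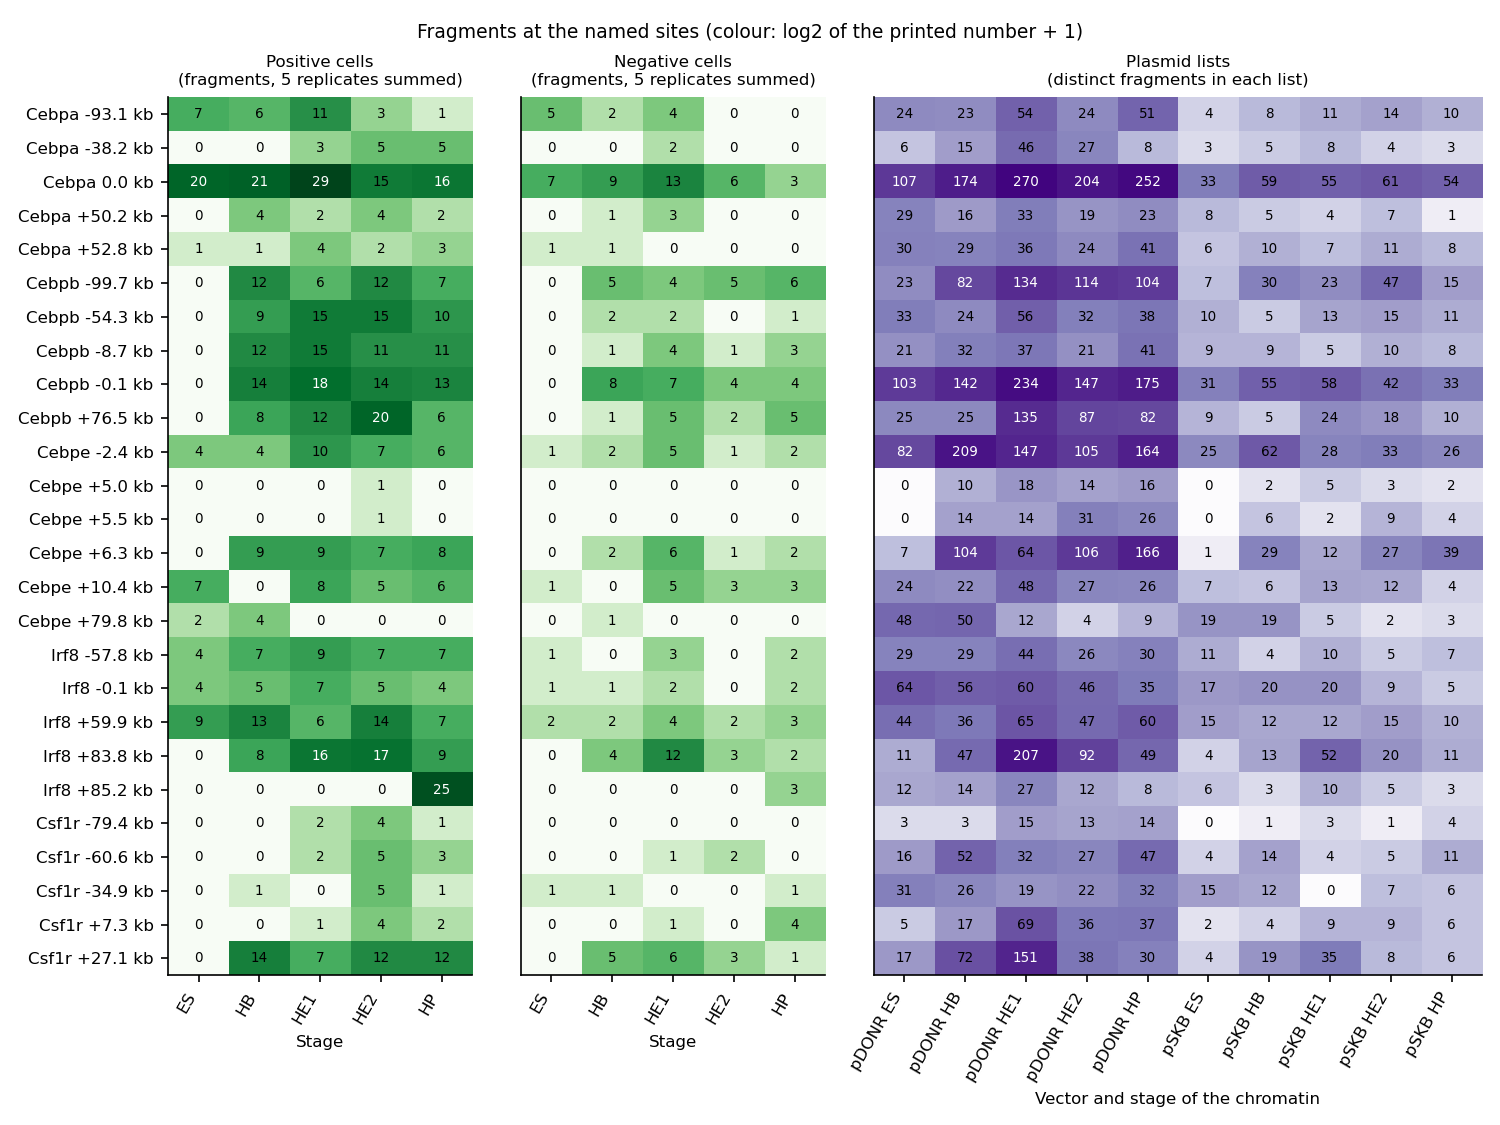
Number of fragments at the named sites (vertical axis) in each stage, summed over 5 replicates, for positive and Negative sets, and number of distinct fragments in each plasmid list; the colour is log2 of the printed number + 1. The Cebpb start site, Cebpe +6.3 kb, Irf8 +83.8 kb and Csf1r +27.1 kb have 0 in ES cells in both sets, and the Cebpa start site has fragments at every stage.

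Absence in a stage was examined over the sites with at least 10 distinct fragments, of which the 5 loci had 37. Of these, 14 (37.8%) had no ES fragment in any gate, against 21.8% of 23784 such sites in the genome. They were 7 of 12 at Cebpb, 5 of 10 at Irf8, 1 of 7 at Cebpe, 1 of 3 at Csf1r and 0 of 5 at Cebpa. The Cebpb start site is among them, and its absence in ES cells depends on the merging rule. All 14 were present in the ES plasmid lists, with 2 to 103 fragments in the pDONR list, as were 96.6% of the sites without ES fragments in the genome. Among the 25 site and stage pairs without a positive fragment, 0 had a Negative fragment (4.06% in the genome), while 138 of the 160 pairs with one (86.3%, against 86.0% in the genome) also had a Negative fragment. A site was thus mostly present on both sides of the YFP gate or on neither. The deposited lists had been restricted to open chromatin, and whether the peaks of each sample's own stage were used was not given in the sources used here, so absence of fragments in a stage and this restriction cannot be told apart.

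Across all 116 sites, 114 (98.3%) had a positive fragment, against 95.7% of all sites, and 86 (74.1%, against 64.0%) had one in at least 2 replicates. Positive fragments were found in 1 stage at 47 sites (40.5%, against 37.7%) and in all 5 stages at 22 (19.0%, against 22.5%). The number of sites with a positive fragment was 44, 61, 53, 63 and 63 from ES cells to HP. These were 37.9%, 52.6%, 45.7%, 54.3% and 54.3% of the 116, against 39.4%, 46.1%, 57.6%, 55.5% and 49.6% of all sites. The counts are not corrected for the number of fragments per stage.

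Whether a locus was enriched among YFP+ cells was tested by comparing the positive with the Negative sets of each stage with limma on log2(fragments per 10000 + 1), over all coding gene windows with Benjamini-Hochberg adjustment. Separate cultures are not stated for the replicates, and so the p-values measure the spread between these samples. At an adjusted p of 0.05, 0 of the 5 members were called in any of the 5 stages, and percent called was 0% of the 17413 to 18026 windows tested. At an unadjusted p of 0.05, 1 member was past the threshold, Cebpe in HE1, against 1.08% of all windows there, and 0 members in the other stages, against 2.23% in ES cells, 2.53% in HB, 1.39% in HE2 and 1.93% in HP. Per 10000, the Negative sets of HE1 gave 1.98, 1.97, 7.31, 6.06 and 17.1 at Cebpe in replicates 1 to 5, and the positive sets 1.92, 2.38, 0, 3.77 and 0. The Negative value was far higher in replicates 3 and 5 and the groups overlapped in the deep replicates. The log2 difference was -1.53 (SE 0.737, n = 5 each, positive lower in 4 of 5) with a limma adjusted p = 1.00. It was -2.18 (limma adjusted p = 0.850) without the 4 shared libraries and 0.08 in replicates 1 and 2 alone, where the direction turned.

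Cebpa in HE1 was lower in the positive sets in 5 of 5 replicates, at 2.09, 2.28, 2.59, 4.52 and 0 against 2.14, 2.95, 2.92, 12.1 and 17.1 per 10000. The values lay close together in replicates 1 to 3 and apart in replicates 4 and 5. The log2 difference was -1.17 (SE 0.707, limma adjusted p = 1.00), and -1.48 without the shared libraries. In ES cells and HE2, 5 of 5 members had a log2 difference above 0, as had 63.6% and 72.9% of all windows. The median of the members was 0.19 in ES cells, against 0.17 over all windows, and 0.39 in HE2, against 0.25. In HB, HE1 and HP, 3, 2 and 3 members lay above 0.

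Changes with development were tested between the positive sets of neighbouring stages. In these 4 comparisons 0 of 5 members were called (limma adjusted p, percent called 0% in each), and 0 members had an unadjusted p under 0.05, against 3.07% of all windows in HB against ES cells, 4.19% in HE1 against HB, 2.33% in HE2 against HE1 and 2.73% in HP against HE2. For Cebpb, HB against ES cells gave a log2 difference of 0.52 (SE 0.606, limma adjusted p = 1.00, HB higher in 4 of 5). In replicates 1 and 2 alone it was 0.54 (SE 0.137, limma adjusted p = 0.199). The difference was of the same size in both fits, and the error was larger with the shallow replicates. Csf1r gave 0.84 (SE 0.592, limma adjusted p = 1.00, higher in 4 of 5) and Cebpa gave -0.59. The median of the 5 members was 0.37 and that of all windows 0.01. For HE1 against HB, HE2 against HE1 and HP against HE2 the member medians were 0.00, -0.03 and -0.11, against -0.05, -0.03 and -0.02 over all windows. Without the 4 shared libraries the direction turned for Irf8 (from 0.31 to -0.24) and Csf1r (from 0.28 to -0.24) in HE1 against HB, and for Cebpa (from 0.02 to -0.26), Cebpe (from -0.03 to 0.41) and Csf1r (from -0.38 to 0.14) in HE2 against HE1. Neighbouring comparisons share the positive sets of a stage.

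**Figure D4:**
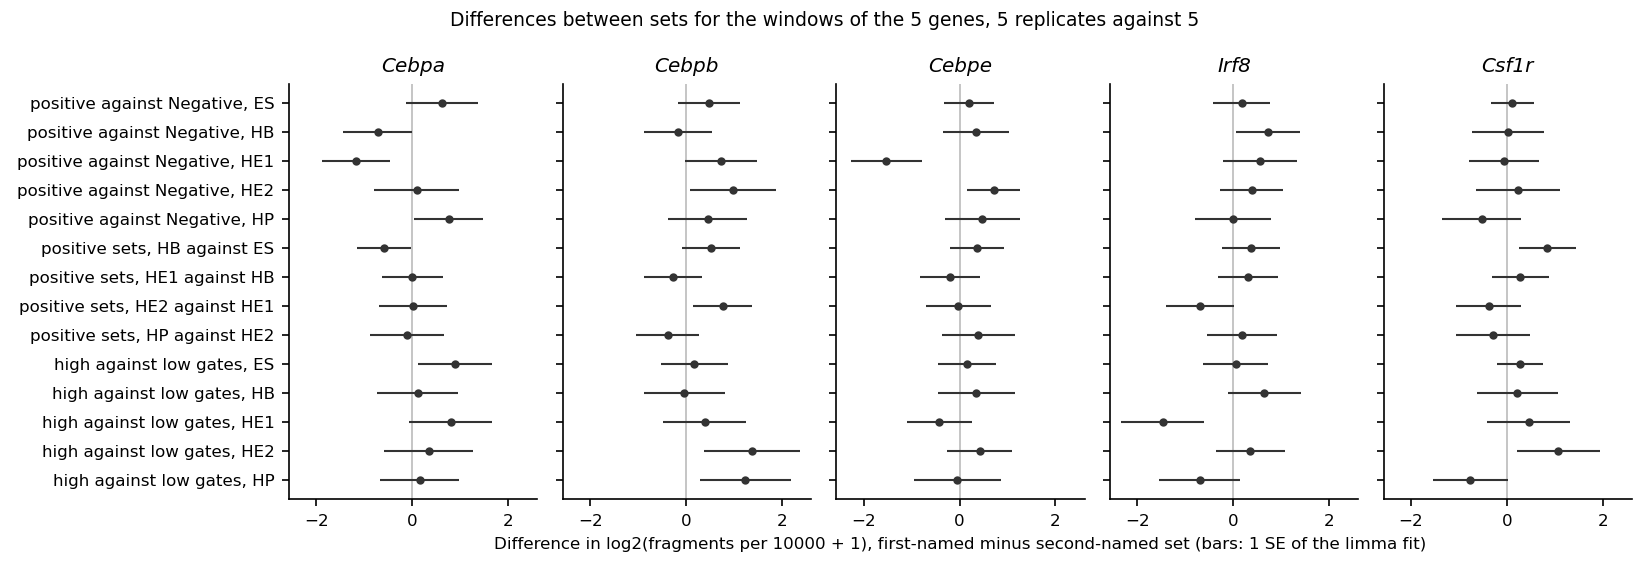
Log2 differences of the 5 loci in the 14 comparisons, first-named minus second-named set, with 1 standard error from limma as bars and a grey line at 0. For every locus most bars cross 0, and 0 of the 5 loci passed the adjusted threshold in any comparison.

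Reporter strength was compared within YFP+ cells, setting the Medium and High gates against Low. In these 5 comparisons 0 of 5 members were called (limma adjusted p, percent called 0% in each) and 0 members had an unadjusted p under 0.05, against 1.61%, 2.00%, 1.64%, 0.599% and 1.22% of all windows from ES cells to HP. Irf8 in HE1 had a log2 difference of -1.47 (SE 0.866, limma adjusted p = 1.00, lower in 4 of 5), and -1.25 without the shared libraries. Pooled, Irf8 had 3.41 per 10000 in the Low gate of HE1 (3.01 without), 2.06 in Medium (1.71 without) and 1.90 in High. Cebpb in HE2 had a log2 difference of 1.38 (SE 0.999, limma adjusted p = 0.988). In replicates 1 to 5 its Medium and High gates gave 3.38, 4.06, 3.69, 8.08 and 15.5 per 10000 and its Low gate 3.73, 3.08, 0, 5.83 and 0. The direction differed between the deep replicates 1 and 2, the values of replicates 4 and 5 above 0 were 1 fragment each, and the pooled levels were 3.73 in Medium and High and 3.501 in Low. For the sum of the 5 loci, the Negative, Low, Medium and High gates of ES cells had 9.36, 9.23, 12.4 and 11.2 fragments per 10000 and those of HE2 10.2, 11.98, 13.0 and 12.7. In HB all 4 gates lay between 13.6 and 14.3, and in HP they had 12.6, 13.0, 14.8 and 12.5. In HE1 they had 12.5, 12.8, 11.1 and 10.8, and without the shared libraries 13.8, 11.6, 10.3 and 10.8. The High gate was above the Negative gate in ES cells and HE2, below it in HE1 and nearly level with it in HP.

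The same tests were made for single sites. Between 12 and 37 member sites per comparison had fragments in at least 4 of the sets, and 0 were called by limma after adjustment in any of the 14 comparisons. The percent called over all sites was 0% in 13 of them and 0.00558% in HB against ES cells. At an unadjusted p of 0.05, 2 of 23 member sites were past the threshold in HB against ES cells (2.91% of all sites), 1 of 37 in HE2 against HE1 (0.519%) and 0 in the others. The shares of all sites at that threshold were 2.03% in HE1 against HB and 0.878% in HP against HE2. From ES cells to HP they were 1.63%, 1.42%, 0.163%, 0.373% and 0.606% for positive against Negative sets and 1.03%, 1.36%, 0.185%, 0.416% and 0.203% for the high against low gates. The Cebpb site at -99.7 kb had 0 fragments in every ES replicate and 7, 3, 1, 1 and 0 in HB. It had thus entered the fit through the HB sets alone, where it was high, and its difference is given as a description. The same minimum was met in HB by the start of Acin1 (Cebpe +25.4 kb), with 13, 5, 2, 1 and 0 fragments against 0, 3, 0, 0 and 0 in ES cells. At the start of Slc26a2 (Csf1r +111.0 kb), HE1 had 8, 10, 1, 4 and 1 positive fragments and HE2 12, 4, 0, 0 and 0, a log2 difference of -1.21 (SE 0.587, limma adjusted p = 1.00), and -0.78 (SE 0.513, limma adjusted p = 1.00) without the shared libraries.

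Representation in the plasmids was compared next, since a fragment absent from the library could not be scored. In fragments per 1000000 listed, pSKB against pDONR gave 228 ± 17.2 and 218 ± 20.0 (SD, n = 5 each) for Cebpa and 345 ± 44.5 and 332 ± 41.7 for Cebpb. With the stage as a block, the log2 differences were 0.07 (SE 0.033, limma adjusted p = 0.152) and 0.05 (adjusted p = 0.156 with limma). Cebpe, Irf8 and Csf1r gave 0.06, 0.04 and 0.00. Hence 0 of 5 members were called, against 17.3% of 21387 windows, 13.5% higher and 3.89% lower in pSKB. All 5 loci lay above the median window of 156 to 165 per 1000000 in every plasmid list. Cebpb had 284 per 1000000 in the pDONR list of ES cells and 341, 305, 336 and 394 in those of HB, HE1, HE2 and HP. Irf8 had 255, 223, 257, 236 and 238. The pDONR level was thus lowest in ES cells for Cebpb, and so it was for Cebpa (195), Cebpe (216) and Csf1r (212), but not for Irf8. The pooled positive level was lowest in ES cells for Cebpb, Cebpe and Csf1r, whereas that of Cebpa was highest there (2.63 per 10000).

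Set against its share in the pSKB fragments that lie over sorted sites, the positive level of Cebpb had a ratio of 0.687, 1.18, 0.869, 1.02 and 1.00 from ES cells to HP (0.824 in HE1 without the shared libraries). That share was pooled over the pSKB lists of all 5 stages (3.58 per 10000 for Cebpb). The ratios are thus not corrected for the plasmid level of each stage. Cebpe and Csf1r stayed below their plasmid share at each stage, Cebpe between 0.582 and 0.753 and Csf1r between 0.625 and 0.978. Irf8 lay between 0.951 and 1.20, with 0.883 in HE1 without the shared libraries. Cebpa had 1.18 in ES cells, 0.735 in HE2 and 1.08 in HP. These ratios have no test. Of the 22319 distinct plasmid fragments over the sites of the 5 loci, 1162 (5.21%) were recovered in a sorted library, against 5.87% over all sites. The recovered share was 6.004% at Irf8, 5.48% at Cebpa, 5.38% at Cebpb, 4.74% at Csf1r and 4.58% at Cebpe.

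**Figure D5:**
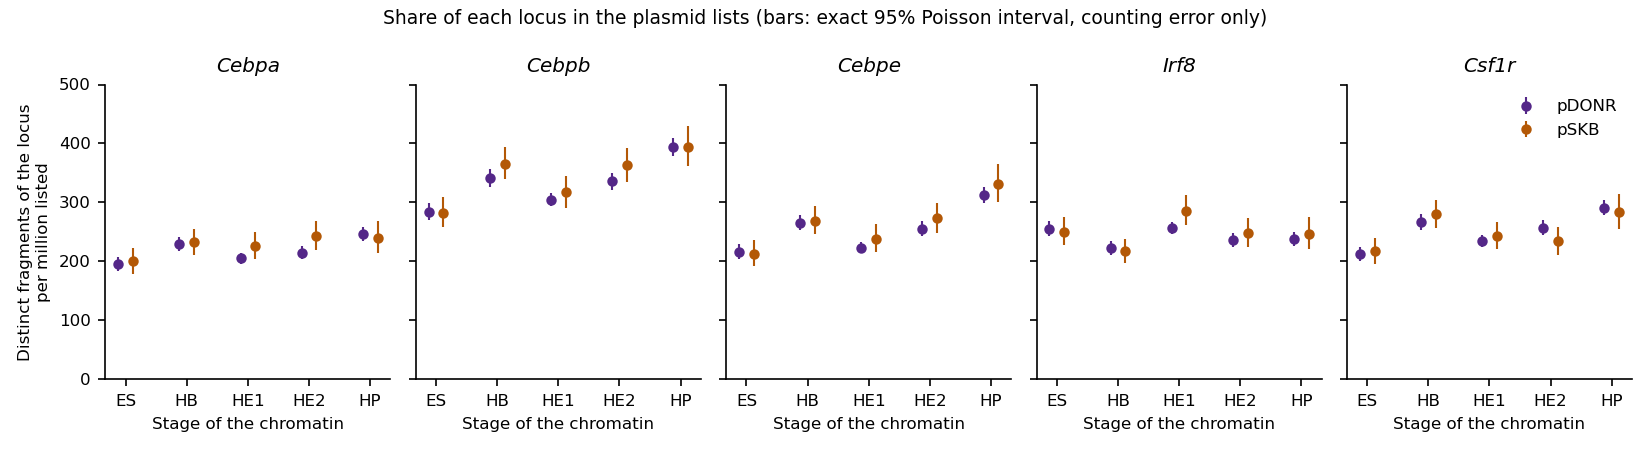
Fragments per 1000000 listed at the 5 loci in the pDONR and pSKB plasmid lists made from each of the 5 stages, with exact 95% Poisson intervals as bars (counting error only). Cebpb runs from 284 per 1000000 in ES cells to 394 in HP in the pDONR lists, and Irf8 between 217 and 286 in the 10 lists.

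Other genes of the myeloid programme were tested in the same way. Of a list of 40 further myeloid genes, 30 to 38 windows were tested per comparison, 0 were called by limma in any of the 14 comparisons, and 0 to 2 had an unadjusted p under 0.05, beside the shares of all windows given above (0.599% to 4.19%). In pSKB against pDONR, 3 of the 40 were called, all higher in pSKB, beside 13.5% of all windows higher and 3.89% lower. Over the 25 positive sets, the windows most like each member were described by Pearson's r of their levels. For Cebpb these were Syt7 (0.881), Hgfac (0.879) and Cend1 (0.863). Ptpn11 (0.965) and Rpl6 (0.964) were most like Cebpe, Abhd16b (0.947) most like Cebpa, Prokr1 (0.931) most like Irf8 and Jmjd7 (0.868) most like Csf1r. The points share the depth of the sets, and shallow sets with high values weigh heavily in such coefficients.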

How the data were processed

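The deposited lists gave the coordinates of distinct fragments for 95 sorted libraries (distal and promoter, with no read counts), 10 plasmid lists (with a count of reads) and 3 control lists of HM-1 cells. Per the study's methods, the authors trimmed the reads (TrimGalore), aligned them to mm10 (Bowtie2), kept uniquely mapped pairs, removed duplicates and fragments of the controls, kept fragments of the plasmid lists and of open chromatin, and split promoter from distal at 1.5 kb from a transcription start. The deposited counts of fragments were not normalized. The material was amplified by PCR without molecular identifiers, so near copies may be 1 molecule. Of the member fragments, 12.7% shared a start or end with another of the same library.

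Sorted starts were moved by 1 bp to the plasmid scale, where 83.5% of listed fragments equalled a plasmid fragment (3.73% as deposited). A total of 1042 fragments on other sequences were left out. Windows were those of 21911 GENCODE coding genes with 100 kb flanks, and sites were merged overlapping fragments. Fragments per 10000 listed + 1 were taken to log2 and fitted with limma 3.58.1 (R 4.3.3, lmFit and eBayes with a trend), for features with a fragment in at least 4 sets, and the 14 comparisons were adjusted by Benjamini-Hochberg over all features. The fits were tested on simulated data. Named sites were the start site of each gene, the 4 distal sites per gene with most positive fragments, sites near elements known for the gene and sites past an unadjusted p of 0.05. Other sites, such as Cebpb +0.7 kb and Irf8 +85.2 kb, were named where they stood out. The members and lists were chosen with earlier results of these data known. Alternatives included depth, flank, gate, filter, tool and replicate choices. Tables were made with Python 3.11.15 and pandas 2.3.3.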

Additional observations from a re-analysis of the deposited data

Results flagged for a closer look

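In 6 of 50 groups of 5 replicates, 1 replicate lay apart from the other 4 by Dixon's test. Its cutoff is set for about 1 in 20 groups of normal values with equal spread. The sets here differ widely in depth and the loci share them, so 6 of 50 cannot be read against that share. All 6 values came from replicates 4 or 5. Cebpa had 23.1 per 10000 in the Negative set of HB replicate 4 (4 of 1734 fragments, others 0 to 5.86) and 13.1 in that of HE2 replicate 4 (2 of 1528, others 0 to 3.504). Csf1r had 13.1 in the same HE2 set (2 of 1528, others 0 to 2.16). In the positive sets, Cebpb had 14.3 in HP replicate 4 (4 of 2805, others 0 to 3.604), 6.44 in HE2 replicate 5 (1 of 1552, others 3.498 to 4.09) and 0 in ES replicate 5 (0 of 2185, others 1.94 to 2.60). Each value rests on 0 to 4 fragments.

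The control lists, made by PCR from HM-1 cells and outside the comparisons, also held fragments at member loci. Control list 2, with 10887 fragments, had 4 at Cebpb and 4 at Cebpe, above the limit of 3 counts used for flagging. In that list 85.8% of all coding gene windows lay at or below a count of 4. Of the listed fragments at the 5 loci, 28 were identical to a control fragment.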

How the results depend on the processing

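In 224 alternative fits of the windows, those of the plasmid comparison included, the number of member windows called stayed at 0. At sites it changed in 6 comparisons when replicates 1 and 2 alone were used, to 5 for positive against Negative in ES cells (8.04% of all sites), 2 in HB (7.48%), 8 for HB against ES cells (13.2%), 11 for HE1 against HB (17.9%), 6 for the high against low gates in ES cells (6.66%) and 2 in HB (6.23%). All 34 calls had 0 fragments in both sets of one side, so these sites met the filter through the other side alone, and 25 rested on at most 1 fragment in each set of the other. The largest were the Cebpb start site in HB against ES cells (0 and 0 against 8 and 6 fragments, limma adjusted p = 0.0369) and Csf1r +27.1 kb (0 and 0 against 6 and 8, adjusted p = 0.0367 with limma). The replicate numbers deviated together in every pair (all r above 0.1) for HB against ES cells and for some other comparisons, with r from 0.141 to 0.287 for windows in HB against ES cells. With the replicate number as a block, 0 member windows and 0 member sites were called in every comparison. Without the 4 HE1 libraries that shared fragments, 0 members were called in the HE1 comparisons. Of the levels, 430 moved by less than the spread between replicates and 20 by more, 13 of them with distal fragments only and 7 with 50 kb flanks. Of the log2 differences, 1032 moved by less and 67 by more. The cause was not tested. Sets of replicates 3 to 5 held between 0 and 18 fragments per locus, and the part of depth in the lack of calls was not tested. In replicates 1 and 2 alone, 0 member windows were called beside 213, 270 and 414 of all windows in HB against ES cells, HE1 against HB and HP against HE2.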
